A study of Mus musculus with 24 samples.

Results

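The genes described are 9 markers of the formative and post-implantation epiblast, *Fgf5*, *Otx2*, *Pou3f1*, *Sox3*, *Sox4*, *Zic2*, *Zic5*, *Foxd3* and *Lef1*, read by symbol from a table of 54242 genes in 24 RNA-seq libraries of mouse CGR8 embryonic stem cells (ESCs). All 9 passed the filter on low values, a mean log2(TPM + 1) of at least 0.5, and were among the 16447 genes tested. TPM divides the reads of a gene by its length and brings every library to 1 common sum, so levels of different genes can be set side by side. The libraries form 8 groups of 3. Cells received a control siRNA (si-CTL) or siRNAs against *Rsl24d1* (si-Rsl24d1), a factor of large ribosomal subunit assembly. They were collected as undifferentiated ESCs in serum and LIF (day 0) or after 4 days with 10 nM retinoic acid (RA; day 4). 4 of the groups carried the rescue, in which doxycycline induces an siRNA-resistant *Rsl24d1* open reading frame from a piggyBac plasmid in the CGR8-RESCUE line, and the labels name the other groups empty vector. The rescue comparisons therefore differ in doxycycline as well as in ectopic *Rsl24d1*, and by the labels also in the vector carried. Whether the unrescued cells are a separate line or the CGR8-RESCUE line without doxycycline is not settled by the sources. All groups come from 1 parental line. The sources differ on the time between transfection and collection and on whether LIF was kept during RA treatment.

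Between implantation and gastrulation the epiblast leaves the naive state of the blastocyst and passes through a formative state, in which it becomes competent to form germ layers and germ cells, before it is primed. In culture, serum and LIF keep mouse ESCs near the naive state with cells fluctuating towards the formative one. *Fgf5* encodes a secreted fibroblast growth factor and is the classical marker of the post-implantation epiblast. *Otx2* and *Pou3f1* (Oct6) encode homeodomain transcription factors, of which OTX2 directs OCT4 to formative enhancers. *Sox3* and *Sox4* encode HMG-box factors, and *Zic2* and *Zic5* encode zinc finger factors that are also used in the early neural plate. *Foxd3* encodes a forkhead factor needed to maintain the epiblast and later the neural crest, and *Lef1* encodes a DNA-binding partner of β-catenin in the Wnt pathway. RA drives ESCs out of pluripotency.

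*Rsl24d1* itself was read first, as a check of the labels. At day 0 without rescue its log2(TPM + 1) was 7.22, 7.14 and 7.10 with si-CTL and 5.23, 5.28 and 5.07 with si-Rsl24d1, a difference of -1.95 (adjusted p = 3.2e-14). At day 4 without rescue the siRNA groups stood at 6.63 and 6.59, a difference of -0.04 with a 95% interval from -0.19 to 0.11, so no depletion of the transcript was detectable at the time when the day 4 markers were read. With rescue at day 0 the mean was 6.75 with si-Rsl24d1 and 7.25 with si-CTL, and endogenous and ectopic transcripts are counted together under this symbol. The pluripotency factor *Pou5f1* had a mean of 10.12 in si-CTL cells at day 0, and the RA-responsive gene *Stra8* rose by 1.97 by day 4. Of 5 tested RA targets 2 were higher by day 4 in si-CTL cells without rescue at an adjusted p under 0.01. There 24.1% of all genes were, and the median change of the 5 was 0.27. The values keep no library size, so depth is unknown. Each group mean rests on 3 libraries, but the standard errors come from 1 fit of all 24 libraries. A gene thus has the same standard error in every comparison of 2 groups, 0.12 for *Fgf5*. The SD of its log2 values was 0.30 for rescued si-CTL at day 0 and 0.04 for the same treatment at day 4. For groups with more spread than the others, such a shared standard error can be too small. In these bulk libraries, fewer cells that express a gene and less RNA per cell cannot be told apart. All tests below are limma's, two-sided, with Benjamini-Hochberg adjustment over the 16447 genes of a comparison, and passing means an adjusted p under 0.01. With 3 libraries on each side, the smallest p an exact permutation test allows is 0.1.

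On GRCm38, *Fgf5* lies at chr5:98254184-98277030, *Otx2* at chr14:48657677-48673819, *Pou3f1* at chr4:124656807-124660655, *Sox3* at chrX:60891366-60893430 and *Sox4* at chr13:28948919-28953713. *Foxd3* lies at chr4:99656299-99658622 and *Lef1* at chr3:131110471-131224356. *Zic5* (chr14:122456795-122465677, minus strand) and *Zic2* (chr14:122475435-122479852, plus strand) are divergent neighbours with 9757 bases between them. RefSeq promoter windows of the build GRCm38.p6 were matched for 6 of the 9 genes, 12 windows in all, and *Pou3f1*, *Sox3* and *Zic2* had no entry. Of each window the 250 bases before the start were read. The 4 genes with a single window are printed because they cover different responses to the siRNAs at day 0, with *Fgf5* and *Sox4* higher, *Foxd3* lower and *Zic5* without a detectable difference. Each runs 5′ to 3′ on the strand of the gene, with CG dinucleotides in capitals.
Fgf5: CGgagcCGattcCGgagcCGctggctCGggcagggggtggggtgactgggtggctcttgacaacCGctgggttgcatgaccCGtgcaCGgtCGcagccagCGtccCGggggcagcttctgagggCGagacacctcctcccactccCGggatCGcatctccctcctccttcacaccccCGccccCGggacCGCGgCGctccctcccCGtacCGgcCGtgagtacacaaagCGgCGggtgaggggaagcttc
Sox4: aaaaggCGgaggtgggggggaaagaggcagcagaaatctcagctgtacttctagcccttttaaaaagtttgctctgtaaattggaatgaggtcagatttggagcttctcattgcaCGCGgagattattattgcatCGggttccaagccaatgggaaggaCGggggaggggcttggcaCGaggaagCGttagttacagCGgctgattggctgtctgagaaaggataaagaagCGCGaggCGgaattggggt
Foxd3: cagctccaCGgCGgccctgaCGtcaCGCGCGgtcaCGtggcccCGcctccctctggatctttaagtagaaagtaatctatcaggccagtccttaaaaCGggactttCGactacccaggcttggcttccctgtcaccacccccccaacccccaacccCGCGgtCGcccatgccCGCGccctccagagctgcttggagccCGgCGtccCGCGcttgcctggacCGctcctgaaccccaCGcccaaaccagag
Zic5: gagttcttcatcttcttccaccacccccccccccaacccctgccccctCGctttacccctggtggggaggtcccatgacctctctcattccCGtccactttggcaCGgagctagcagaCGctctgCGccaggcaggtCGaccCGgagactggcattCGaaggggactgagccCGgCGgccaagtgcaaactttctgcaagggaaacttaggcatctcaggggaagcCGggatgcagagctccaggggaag

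These windows are *Fgf5* chr5:98253934-98254183 on the plus strand, *Sox4* chr13:28953700-28953949 on the minus strand, *Foxd3* chr4:99656049-99656298 on the plus strand and *Zic5* chr14:122465659-122465908 on the minus strand. The *Fgf5* window holds 24 CG dinucleotides at a GC content of 70.8%, and 12.0% of 32851 windows of this length hold at least as many. The *Foxd3* window holds 21, a number reached by 16.3% of all windows, and those of *Sox4* and *Zic5* hold 11 each, reached by 35.6%. *Fgf5* and *Foxd3*, which moved in opposite directions at day 0, thus share the densest CG content of the 12 windows. The letters TATAAA, searched on both strands, occur in 2 of the 12 windows, 1 of *Otx2* and 1 of *Lef1*, against 12.4% of all windows. The letters CTTTGAT, the core bound by TCF and LEF factors, occur in 0 of the 12 on either strand, against 3.21% of all windows.

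In si-CTL cells at day 0 without rescue the markers covered a wide range of levels per transcript length. *Otx2* was highest with 30.5 ± 1.5 TPM (SD, n = 3), followed by *Zic2* with 26.6 ± 2.2 and *Zic5* with 18.2 ± 1.9. *Pou3f1* (14.3 ± 0.27), *Sox4* (14.1 ± 1.3) and *Foxd3* (13.9 ± 0.16) were within their spread of each other. *Lef1* (7.23 ± 0.68), *Sox3* (4.38 ± 0.086) and *Fgf5* (1.46 ± 0.37) were lowest. *Fgf5*, the marker most used for the state, was thus close to the floor of the scale in control ESCs, and adding 1 to the TPM compresses its changes. Over the 24 libraries the highest TPM was 11.6 times the lowest for *Pou3f1*, 7.89 times for *Foxd3*, 6.04 times for *Lef1* and 5.01 times for *Fgf5*, and it was 2.15 times for *Zic2*.

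The order of the 8 groups differed between the genes. For *Otx2*, *Pou3f1* and *Sox3* the 4 day 0 groups had the highest means and did not overlap each other, from si-Rsl24d1 through rescued si-Rsl24d1 and si-CTL to rescued si-CTL. For *Fgf5* the first 2 of these stood apart in the same order, and the other 6 groups, between mean log2(TPM + 1) of 1.11 and 1.29, overlapped with their neighbours. For *Zic2*, *Foxd3* and *Lef1* all day 0 groups lay above all day 4 groups, with overlaps among those of a day. *Sox4* was highest in day 4 si-Rsl24d1 cells, with a mean of 4.81, and lowest in rescued si-CTL cells at day 0, with 3.58.

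**Figure D1:**
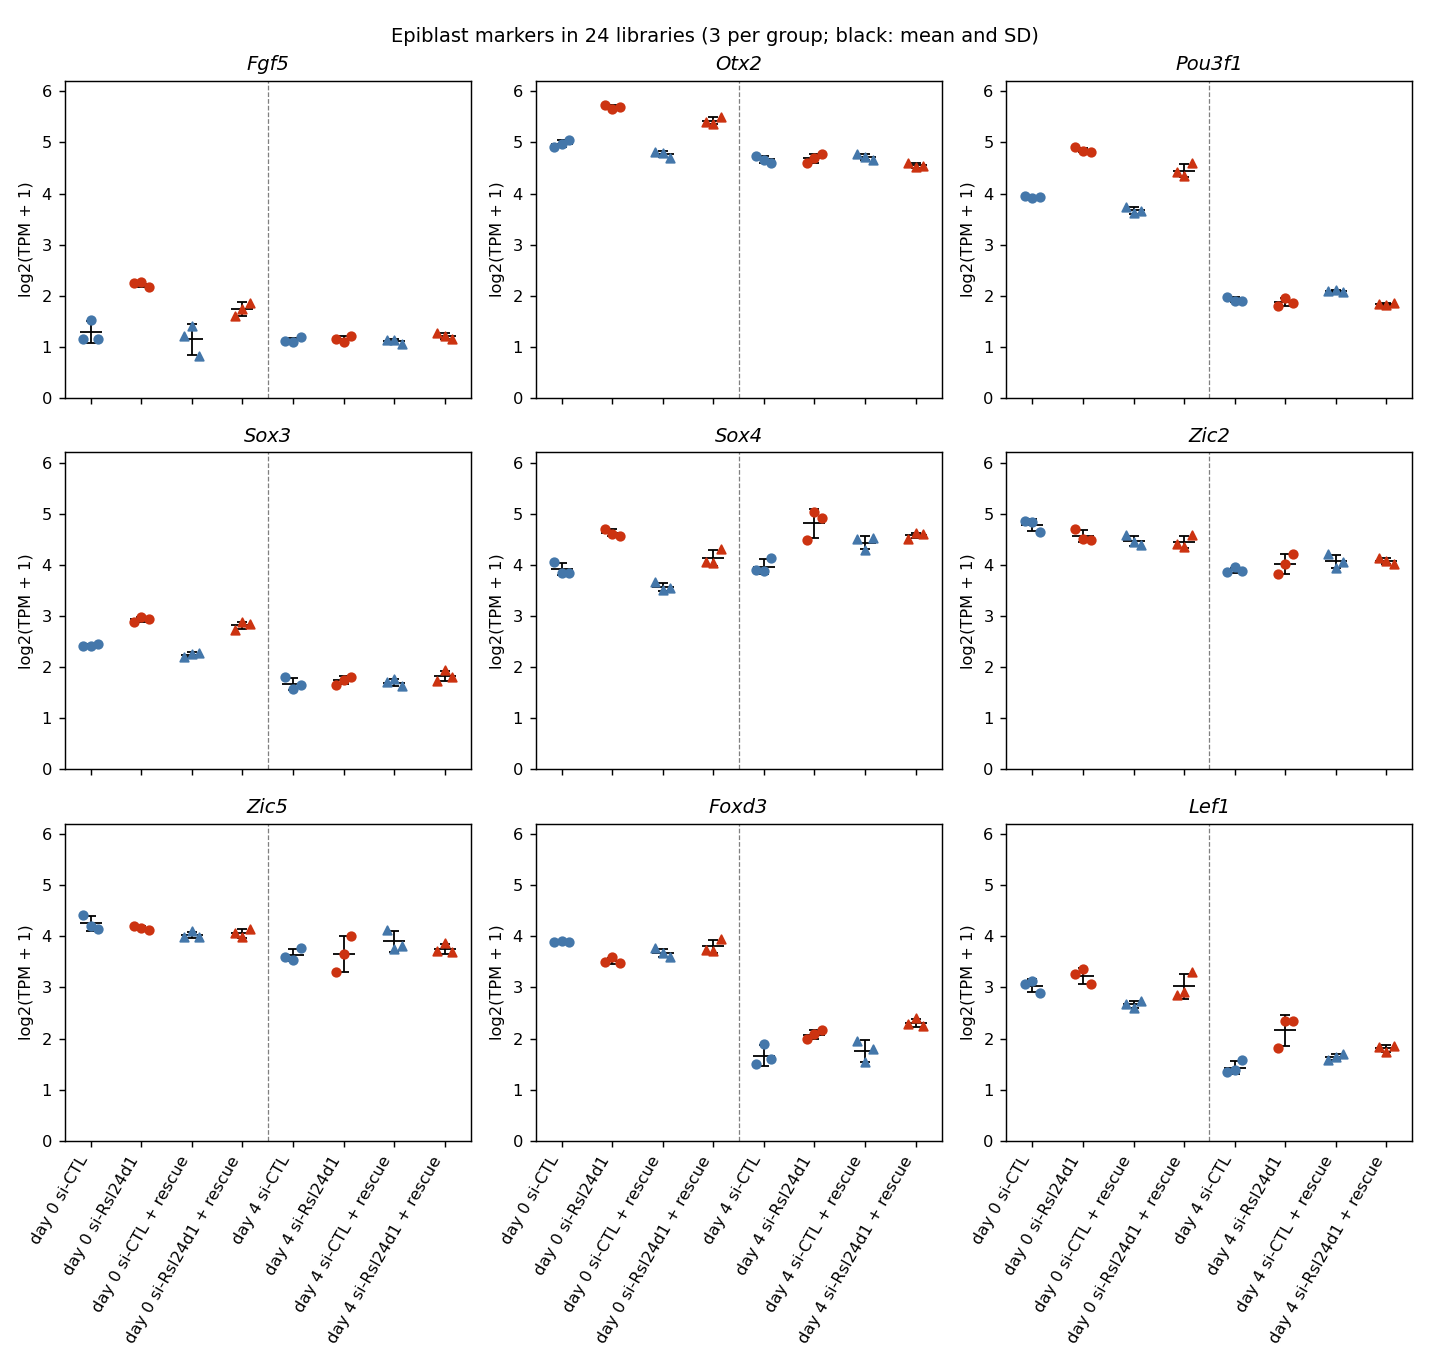
Level of each marker as log2(TPM + 1) in the 24 libraries (y axis), by group (x axis), with si-CTL in blue, si-Rsl24d1 in red, circles without rescue, triangles with rescue, and black lines for the mean and SD of 3 libraries. The red day 0 points of Fgf5, Otx2, Pou3f1, Sox3 and Sox4 lie above the blue ones, while Pou3f1 falls from about 3.94 to 1.93 in si-CTL cells by day 4.

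At day 0 without rescue, si-Rsl24d1 cells had more transcript of the secreted factor *Fgf5*, both homeodomain factors and both SOX factors, while *Foxd3* was lower and *Zic2*, *Zic5* and *Lef1* did not pass the test. Of the 9 markers, 5 passed in the higher direction, where 14.3% of all genes did, and 1 passed in the lower direction, where 16.1% did. *Fgf5* and *Pou3f1* also changed by more than 1.8-fold on this scale, 2 of 9 against 3.4% of all genes. The median difference of the markers was 0.51 on the log2 scale, and that of all genes tested -0.01.

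*Fgf5* had log2(TPM + 1) of 1.16, 1.53 and 1.16 in the si-CTL libraries and 2.24, 2.27 and 2.17 in the si-Rsl24d1 libraries. The groups did not overlap, although the si-CTL library of replicate 2 stood above the other two. The difference was 0.94 (standard error 0.12, adjusted p = 2e-06), or 1.46 ± 0.37 against 3.69 ± 0.17 TPM. *Otx2* was at 4.91, 4.97 and 5.04 with si-CTL and 5.73, 5.65 and 5.69 with si-Rsl24d1, a difference of 0.71 (standard error 0.05, adjusted p = 1.7e-09) with all si-Rsl24d1 libraries above. *Pou3f1*, which is also a factor of Schwann cells and neural progenitors, was at 3.96, 3.91 and 3.94 and rose to 4.91, 4.83 and 4.82. Its difference of 0.92 (standard error 0.06, adjusted p = 2.2e-10) left no overlap between the groups. The gene of an antisense transcript, *Gm2164*, overlaps *Pou3f1* by 363 bases and *Otx2os1* overlaps *Otx2* by 5112 bases. The level of *Gm2164* ran from 0.68 to 1.01 with si-CTL and from 1.13 to 1.70 with si-Rsl24d1, and that of *Otx2os1* from 0.10 to 0.26 and from 0.17 to 0.57. *Lef1*, *Sox4* and *Foxd3* also overlap noncoding genes. Whether the counting used strand is not given in the sources used here, and reads of overlapping genes may not have been told apart.

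Of the SOX factors, *Sox3* was at 2.42, 2.41 and 2.45 with si-CTL and 2.89, 2.98 and 2.94 with si-Rsl24d1, a difference of 0.51 (standard error 0.07, adjusted p = 7.1e-06). *Sox4* was at 4.05, 3.84 and 3.85 and 4.70, 4.61 and 4.57, a difference of 0.71 (standard error 0.11, adjusted p = 3.5e-05). For both genes the lowest si-Rsl24d1 library was above the highest si-CTL library. Such a gap was found in 5 of the 9 markers and in 3914 of the 16447 genes tested. In the lower direction it was found in 1 marker and 4483 genes. *Foxd3* went the other way, from 3.88, 3.91 and 3.89 to 3.49, 3.59 and 3.48, a difference of -0.37 (standard error 0.10, adjusted p = 0.0059). This was the least stable of the 6: in 8 of 14 alternative fits its adjusted p was at or above 0.01. Leaving out replicate 1, 2 or 3 of si-CTL gave 0.015, 0.02 and 0.016, and leaving out replicate 1 or 3 of si-Rsl24d1 gave 0.022 and 0.024.

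The zinc finger genes and *Lef1* gave no call. *Zic2* differed by -0.22 (adjusted p = 0.066, 95% interval -0.42 to -0.03) and *Zic5*, its neighbour, by -0.09 (adjusted p = 0.59, interval -0.36 to 0.17). *Lef1*, the Wnt effector, differed by 0.19 (adjusted p = 0.27, interval -0.08 to 0.46), with overlapping libraries.

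**Figure D2:**
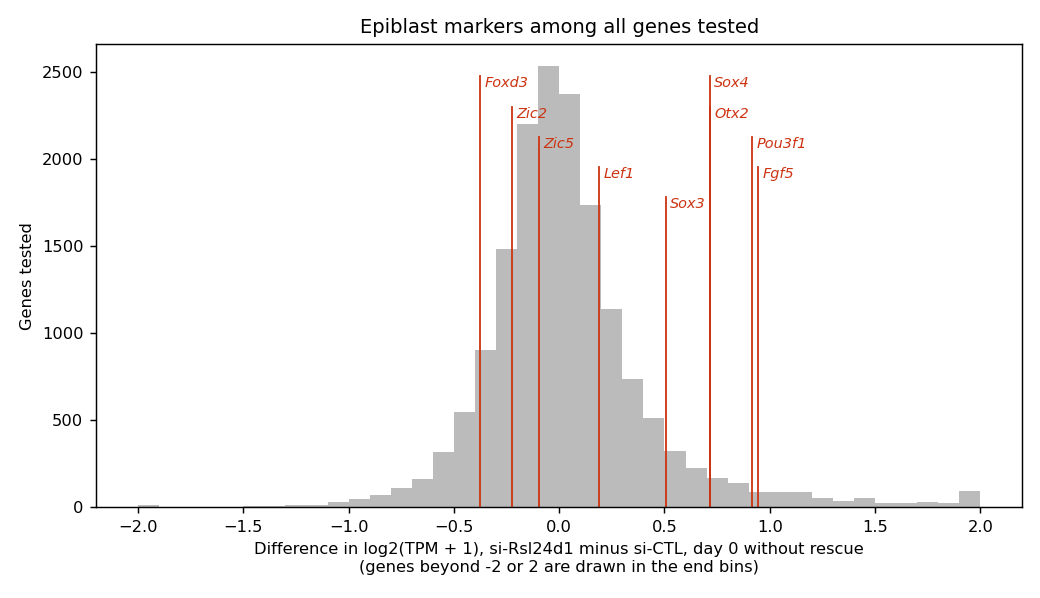
Histogram of the difference in log2(TPM + 1) between si-Rsl24d1 and si-CTL cells at day 0 without rescue (x axis) over the 16447 genes tested (y axis, number of genes), with each marker as a red line. Fgf5 (0.94), Pou3f1 (0.92), Otx2, Sox4 and Sox3 lie in the right tail, and Foxd3 (-0.37) lies on the left.

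With rescue, the siRNA difference was read against rescued si-CTL cells, so that its group means share no library with the comparison above. Both comparisons take their standard errors from the same fit of all 24 libraries. The same 5 genes passed in the higher direction, where 8.1% of all genes did, and none of the other 4 passed. *Fgf5* was at 1.22, 1.42 and 0.82 in rescued si-CTL and 1.60, 1.74 and 1.87 in rescued si-Rsl24d1 libraries, a difference of 0.58 (standard error 0.12, adjusted p = 0.001). Replicate 3 of the rescued si-CTL libraries was the lowest *Fgf5* value of the series. In a fit of the 2 groups alone the *Fgf5* difference did not pass (adjusted p = 0.066), and that of *Sox4* had an adjusted p of 0.012. *Otx2* differed by 0.65 (adjusted p = 2.2e-08), *Pou3f1* by 0.78 (adjusted p = 9e-09), *Sox3* by 0.58 (adjusted p = 4.3e-06) and *Sox4* by 0.56 (adjusted p = 0.001). *Foxd3* differed by 0.13 (adjusted p = 0.43), and *Lef1* by 0.35 (adjusted p = 0.06), or 0.21 without replicate 3 of the rescued si-Rsl24d1 cells.

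As a share of the difference without rescue, the difference with rescue was 61.9% for *Fgf5*, 78.4% for *Sox4*, 85.0% for *Pou3f1*, 91.3% for *Otx2* and 114% for *Sox3*. The change in the siRNA difference was tested as an interaction, and 0 of the 9 markers passed in limma, with 2 at an unadjusted p under 0.05. Of all genes 0.906% passed in the higher and 1.18% in the lower direction, so the count of 0 does not set the markers apart. The interaction was -0.36 for *Fgf5* (adjusted p = 0.26, and -0.23 without replicate 2 of the rescued si-CTL cells), 0.50 for *Foxd3* (adjusted p = 0.048) and 0.07 for *Sox3* (adjusted p = 0.8). *Rsl24d1* itself was still 0.50 below rescued si-CTL cells in these libraries (adjusted p = 2.2e-05).

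Rescued si-Rsl24d1 cells were also compared with unrescued ones, a comparison that shares libraries with both siRNA comparisons. Of the 9 markers, 4 passed in the lower direction, against 12.2% of all genes: *Fgf5* (-0.49, adjusted p = 0.0045), *Sox4* (-0.49, adjusted p = 0.0034), *Pou3f1* (-0.40, adjusted p = 7.6e-05) and *Otx2* (-0.27, adjusted p = 0.0013). The median of all genes was -0.11 in this comparison, and scaling by the median of ratios to a common reference brings it near 0. With that scaling 54.7% of the genes that passed were higher, against 20.1% without it. *Fgf5* then differed by -0.39 (adjusted p = 0.015) and *Otx2* by -0.13 (adjusted p = 0.054), and *Foxd3* passed in the higher direction (0.41, adjusted p = 0.0028). Under this scaling 2 of the 9 passed in the lower direction, against 7.08% of all genes. The 1 marker in the higher direction stands against 8.54% of all genes, so that count does not set the markers apart. Leaving out 1 library raised the adjusted p above 0.01 for *Fgf5* (replicate 1 or 2 without rescue, 0.018 and 0.019; replicate 1 or 2 with rescue, 0.031 and 0.016) and for *Otx2* (replicate 2 with rescue, 0.011). For *Sox4* the same held without replicate 1 or 2 of the unrescued cells (0.02 and 0.011) and of the rescued cells (0.021 and 0.022), whereas *Pou3f1* passed without each of the 6 libraries. In a fit of the 2 groups alone none of the 4 passed, with adjusted p from 0.014 to 0.017.

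In si-CTL cells, the difference between rescued and unrescued cells ran from -0.13 for *Fgf5* to -0.37 for *Lef1*, and none of the 9 passed, where 0.0122% of all genes did in the lower direction. By limma 7 of the 9 had an unadjusted p under 0.05, as had 6739 of all genes, whose median was -0.12. With median of ratios scaling, which brings that median near 0, the markers ran from -0.05 for *Fgf5* to -0.24 for *Lef1*, with *Otx2* at -0.06, and again none passed. The difference of *Fgf5* was 0.03 without replicate 3 of the rescued cells. *Rsl24d1* itself differed by 0.10 between rescued and unrescued si-CTL cells (adjusted p = 0.29), with overlapping libraries. In si-Rsl24d1 cells at day 0 it differed by 1.55 (adjusted p = 7.6e-11).

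**Figure D3:**
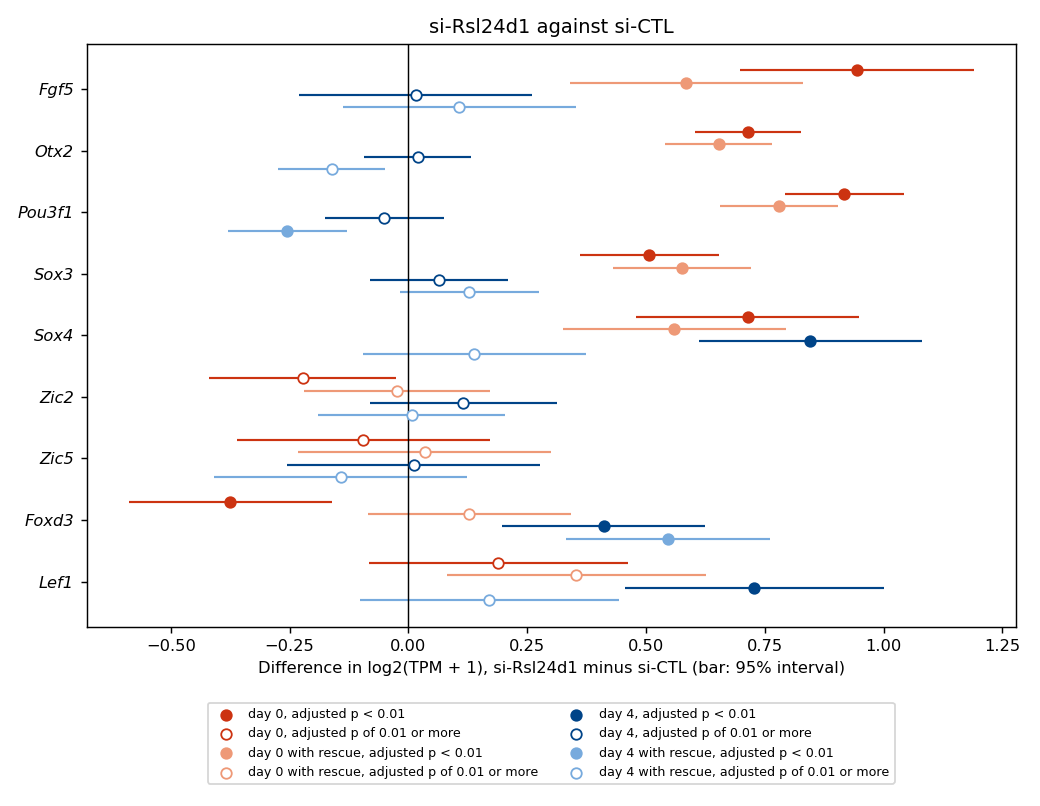
Difference in log2(TPM + 1) between si-Rsl24d1 and si-CTL cells (x axis) for each marker (y axis) at day 0 and day 4, without and with rescue, with 95% intervals and filled points where the adjusted p was under 0.01. The day 0 intervals of Fgf5, Otx2, Pou3f1 and Sox3 lie to the right of 0 and their day 4 intervals without rescue include 0, while Sox4 stays to the right at day 4 without rescue (0.85).

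After 4 days of RA, si-CTL cells without rescue had lost most of the *Pou3f1*, *Foxd3* and *Lef1* transcript, while *Fgf5* and *Sox4* showed no detectable change. Of the 9 markers 7 passed in the lower direction, against 36.7% of all genes, and 4 of them also fell by more than 1.8-fold, against 8.24%. *Foxd3* dropped from 3.88, 3.91 and 3.89 at day 0 to 1.503, 1.90 and 1.60, a change of -2.23 (standard error 0.10, adjusted p = 3.1e-13), or 13.9 ± 0.16 to 2.20 ± 0.48 TPM. *Pou3f1* dropped to 1.98, 1.90 and 1.89, a change of -2.01 (adjusted p = 5.3e-16). *Lef1* dropped from 3.08, 3.13 and 2.90 to 1.34, 1.38 and 1.58, a change of -1.60 (adjusted p = 1.5e-09). In none of these genes did a day 4 library reach the day 0 range. The same held, in the lower direction, for 7 of the 9 markers and 7159 of the 16447 genes tested. The day 0 libraries are those of the siRNA comparisons above.

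*Zic2* fell by 0.89 (adjusted p = 7e-08), which was -0.76 and under 1.8-fold with median of ratios scaling, *Sox3* fell by 0.75 (adjusted p = 1.1e-08), *Zic5* fell by 0.62 (adjusted p = 0.00025) and *Otx2* fell by 0.31 (adjusted p = 3.9e-05). *Otx2*, also a regulator of the anterior neural plate, thus kept 24.4 ± 1.2 TPM of its 30.5 ± 1.5. *Fgf5* changed by -0.15 (adjusted p = 0.26) from an already low level. *Sox4*, which is widely used in differentiating progenitors, changed by 0.05 (adjusted p = 0.69).

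In si-Rsl24d1 cells without rescue 8 of the 9 markers passed in the lower direction against 26.4% of all genes, and 6 fell by more than 1.8-fold against 6.22%. At day 0 these cells had started above si-CTL cells for *Fgf5*, *Otx2*, *Pou3f1*, *Sox3* and *Sox4* and below them for *Foxd3*. *Pou3f1* fell furthest, by 2.98 (adjusted p = 1.8e-18), from 27.9 ± 0.92 to 2.67 ± 0.20 TPM. *Fgf5* fell by 1.08 to 1.15, 1.09 and 1.21, *Otx2* fell by 1.00 and *Sox3* fell by 1.19. *Foxd3* and *Lef1* changed by -1.44 and -1.06, against -2.23 and -1.60 in si-CTL cells. *Zic2* and *Zic5* changed by -0.55 and -0.51. Without replicate 1 of the day 4 cells *Zic5* changed by -0.34 (adjusted p = 0.014), and *Sox4*, which changed by 0.19 (adjusted p = 0.16), was 0.35 higher (adjusted p = 0.004).

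With rescue, RA lowered 5 of the 9 markers in si-CTL cells by the test, against 22.4% of all genes (30.7% with median of ratios scaling, where *Otx2* also passed at -0.20), of which 3 by more than 1.8-fold against 4.82%: *Foxd3* (-1.91), *Pou3f1* (-1.57) and *Lef1* (-1.03). *Sox4* was the 1 marker that rose by more than 1.8-fold there, against 10.7% of all genes. It went from 3.66, 3.52 and 3.54 at day 0 to 4.50, 4.29 and 4.52 at day 4, a change of 0.86 (adjusted p = 1.2e-06), and it was 0.72 and under that fold with median of ratios scaling. Leaving out replicate 2 or 3 of the day 0 cells or replicate 1 or 3 of the day 4 cells also took it under that fold, at 0.82 to 0.85. In rescued si-Rsl24d1 cells 7 markers passed in the lower direction, against 25.8% of all genes, and 5 fell by more than 1.8-fold against 5.57%. These were *Pou3f1* (-2.61), *Foxd3* (-1.496), *Lef1* (-1.21), *Sox3* (-0.99) and *Otx2* (-0.87), the last at -0.83 without replicate 3 of the day 0 cells. *Sox4* rose by 0.44 (adjusted p = 0.0018, and 0.011 without replicate 2 of the day 0 cells) and *Zic2* changed by -0.37 (adjusted p = 0.0018, and 0.014 or 0.01 without replicate 3 of the day 0 or the day 4 cells). *Zic5* changed by -0.30 (adjusted p = 0.042) and passed with median of ratios scaling (-0.38, adjusted p = 0.0039).

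**Figure D4:**
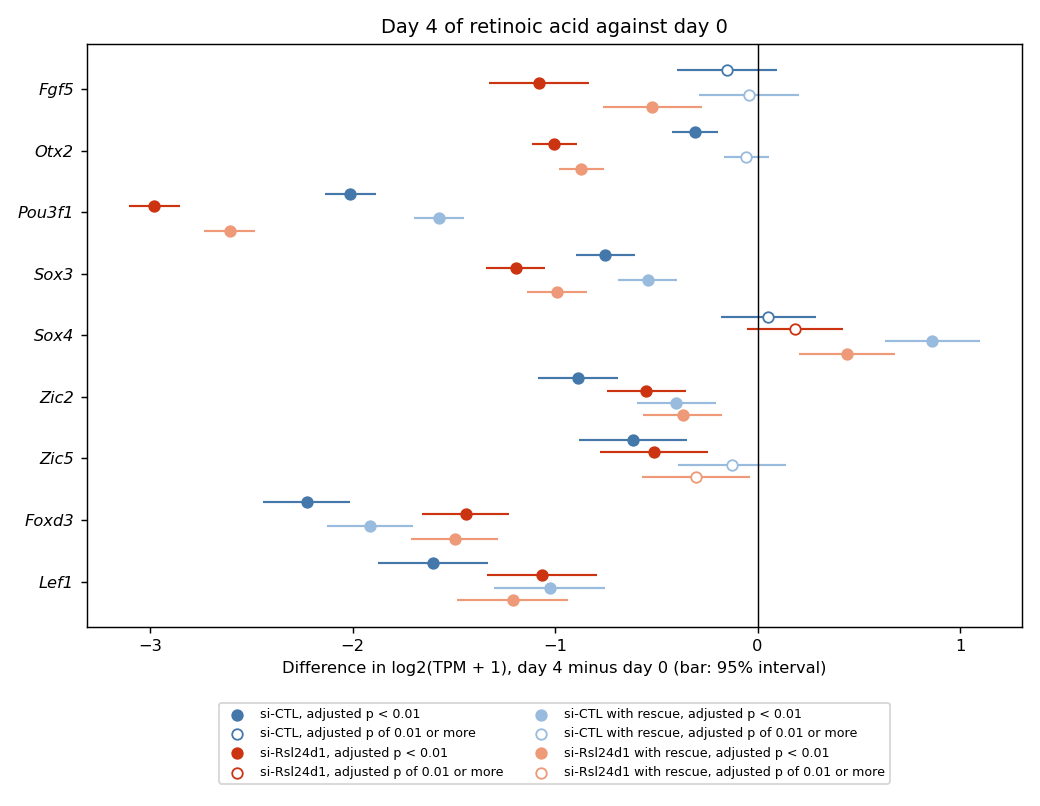
Difference in log2(TPM + 1) between day 4 of RA and day 0 (x axis) for each marker (y axis) in si-CTL and si-Rsl24d1 cells, without and with rescue, with 95% intervals and filled points where the adjusted p was under 0.01. Pou3f1 (-2.98 to -1.57), Foxd3 (-2.23 to -1.44) and Lef1 (-1.60 to -1.03) lie left of 0 in all 4 settings, and Sox4 lies at or right of 0.

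At day 4 without rescue the siRNA groups were nearly level for *Fgf5*, *Otx2*, *Pou3f1* and *Sox3*, but not for *Sox4*, which had also been higher at day 0. Without rescue, *Fgf5* was at 1.12, 1.10 and 1.19 with si-CTL and 1.15, 1.09 and 1.21 with si-Rsl24d1, a difference of 0.02 (adjusted p = 0.93, 95% interval -0.23 to 0.26). The differences of *Otx2* (0.02, interval -0.09 to 0.13), *Pou3f1* (-0.05, interval -0.18 to 0.07) and *Sox3* (0.06, interval -0.08 to 0.21) did not pass either. The median of all genes was 0.13 in this comparison, and with median of ratios scaling, which removes that shift, *Pou3f1* alone of the 9 passed in the lower direction (-0.17, adjusted p = 0.0056), where 15.2% of all genes did, and the signs of *Fgf5*, *Otx2* and *Sox3* turned to -0.08, -0.14 and -0.05.

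3 of the 9 markers passed in the higher direction at day 4 without rescue, *Sox4*, *Lef1* and *Foxd3*, where 24.9% of all genes did. This count does not set the markers apart. With median of ratios scaling 2 passed, *Sox4* (0.68) and *Lef1* (0.61), where 14.1% of all genes did, and the higher share of the genes that passed went from 80.5% to 48.1%. *Sox4* was at 3.90, 3.87 and 4.13 with si-CTL and 4.49, 5.03 and 4.92 with si-Rsl24d1, a difference of 0.85 (adjusted p = 1.2e-05). *Lef1* was at 1.34, 1.38 and 1.58 and 1.81, 2.34 and 2.34, a difference of 0.73 (adjusted p = 0.00024). *Foxd3*, lower with si-Rsl24d1 at day 0, was at 1.503, 1.90 and 1.60 and 1.99, 2.09 and 2.16, a difference of 0.41 (adjusted p = 0.0033). In all 3 genes the libraries of the groups did not overlap, as was so in that direction for 6101 of the 16447 genes tested. Replicate 1 was the lowest of the si-Rsl24d1 libraries in all 3. Without it, *Sox4* and *Lef1* differed by 1.01 and 0.90, both over 1.8-fold, and without replicate 3 of si-CTL *Sox4* differed by 0.93. *Foxd3* missed the threshold in 6 of 14 alternative fits, with adjusted p up to 0.049. These were median of ratios scaling (0.018), the fit of the 2 groups alone, and the fits without replicate 1 or 3 of si-CTL (0.025 and 0.015) or replicate 2 or 3 of si-Rsl24d1 (0.013 and 0.02). In the fit of the 2 groups alone *Sox4* and *Lef1* had adjusted p of 0.012 and 0.022.

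Markers of neural crest and endoderm also moved at day 4 without rescue. The summed TPM of 4 tested and 2 untested neural crest genes ran from 9.91 to 11.2 in si-CTL and from 17.8 to 22.4 in si-Rsl24d1 libraries, with *Snai2* and *Ets1* higher by 0.80 and 0.93. That of 8 endoderm genes ran from 16.4 to 22.3 and from 33.8 to 45.2, with *Gata6* and *Cubn* higher by 0.99 and 1.09. All of the 5 tested endoderm genes passed in the higher direction, as did 2 of the 4 tested neural crest genes, against 24.9% of all genes. With median of ratios scaling 14.1% of all genes passed, but the lists were not counted under that scaling. *Tfap2b*, a neural crest gene, had group means of 0.73 and 0.97, and *Afp*, a late endoderm gene, 0.17 and 0.23. Of the 7 tested neural genes 2 passed in the higher direction, a share near that of all genes, with a median difference of 0.06. The summed TPM of all 10 neural genes ran from 38.7 to 38.9 in si-CTL and from 50.8 to 62.1 in si-Rsl24d1 libraries. Of the 4 tested primitive streak genes 0 passed, with a median difference of 0.01. The part of these lineages in the *Sox4*, *Lef1* and *Foxd3* differences was not tested.

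With rescue at day 4, *Foxd3* was the 1 marker that passed in the higher direction (0.55, adjusted p = 0.0014), against 2.33% of all genes, and *Pou3f1* the 1 that passed in the lower direction (-0.25, adjusted p = 0.0078), against 3.53%. With median of ratios scaling these shares of all genes were 3.5% and 2.78%. The adjusted p of *Foxd3* was 0.013 without replicate 2 of si-CTL and 0.012 without replicate 2 of si-Rsl24d1, and that of *Pou3f1* was above 0.01 in 9 of 14 alternative fits, among them those without each of the 6 libraries in turn (0.019 to 0.035). *Sox4* and *Lef1* differed by 0.14 and 0.17 and did not pass.

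Whether the siRNA difference itself changed between the days was tested as an interaction without rescue, coded as the day 4 difference minus the day 0 difference. 4 of the 9 markers passed in the lower direction, against 8.83% of all genes, and 1 in the higher direction, against 22.1%. With median of ratios scaling 4 and 1 passed again, against 13.0% and 15.8% of all genes. *Pou3f1* (-0.97, standard error 0.08, adjusted p = 3.5e-08) and *Fgf5* (-0.93, standard error 0.17, adjusted p = 0.00018) exceeded 1.8-fold, 2 of 9 against 2.71% of all genes in that direction. *Otx2* (-0.70, adjusted p = 6.7e-07) and *Sox3* (-0.44, adjusted p = 0.0014) completed the 4. *Foxd3* passed in the higher direction (0.78, standard error 0.14, adjusted p = 0.00024), at 0.90 and over 1.8-fold without replicate 2 of the day 4 si-CTL cells. *Sox4* had an interaction of 0.13 (adjusted p = 0.53), *Lef1* 0.54 (adjusted p = 0.023) and *Zic2* 0.34 (adjusted p = 0.045). Without replicate 1 of the day 4 si-Rsl24d1 cells those of *Lef1* and *Zic2* were 0.71 (adjusted p = 0.0011) and 0.44 (adjusted p = 0.0075). The interaction uses the same libraries as the differences at each day.

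The markers were set beside lists from the same developmental stages. Of 20 further genes of the formative and primed epiblast, all tested, 8 passed in the higher direction at day 0 without rescue, where 14.3% of all genes did, and 3 in the lower direction, where 16.1% did, with a median difference of 0.11. The 3 lower genes were thus no larger a share than that of all genes. The Wnt ligand *Wnt8a* (2.22), *Sall2* (1.35) and the TGF-β family ligand *Nodal* (1.10) led, and all 3 stayed higher with rescue (1.42, 0.99 and 0.70). By limma's interaction with rescue the difference was smaller for *Wnt8a* (-0.80, adjusted p = 0.0003) and *Nodal* (-0.40, adjusted p = 0.0044). These were 2 of the 20, against 1.18% of all genes, and *Sall2* did not pass (-0.36, adjusted p = 0.1). The de novo DNA methyltransferases moved in opposite directions, *Dnmt3a* by 0.52 and *Dnmt3b* by -0.53, and *Fgf8* changed by -0.63. Of 13 genes of the naive network, 12 passed in the lower direction without rescue, against the same 16.1% of all genes, with *Tcl1* (-1.25), *Nr0b1* (-1.14) and *Esrrb* (-1.09) furthest, and 7 did with rescue, where 5.64% of all genes did. The interaction with rescue passed in the higher direction for 4 of the 13, against 0.906% of all genes. Of the general pluripotency factors, *Pou5f1* passed in the lower direction (-0.31), and *Sox2* (-0.01) and *Sall4* (-0.02) did not pass. At day 0 the naive genes thus fell with the exception of *Tbx3* (-0.26, adjusted p = 0.053), while the formative markers held genes that rose, fell or gave no call.

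By day 4 of RA in si-CTL cells without rescue, 18 of the 20 further epiblast genes passed in the lower direction, where 36.7% of all genes did, and 11 fell by more than 1.8-fold, where 8.24% did, led by *Etv4* (-3.84), *Pim2* (-3.29) and *Dnmt3b* (-2.99). The naive genes were mixed, with 9 lower and 4 higher, the latter against 24.1% of all genes, among them *Dppa3* (2.05) and *Nanog* (0.79). At day 4 without rescue, 12 of the 20 epiblast genes passed in the higher direction with si-Rsl24d1, where 24.9% of all genes did. In the lower direction 2 passed, where 6.04% did, and *Cdh2* (1.52) and *Etv4* (0.93) were furthest up. The median of the 20 was 0.30 and that of all genes 0.13. Median of ratios scaling took the 24.9% to 14.1%, and the 20 genes were not counted under it. Of the 13 naive genes 3 passed in the higher direction, a share near that of all genes, and 1, *Dppa3* (-0.56), in the lower. Of the RA targets, *Rarb* was higher by 0.80 and *Cyp26a1* by 0.43, and *Stra8* differed by -0.12 and did not pass.

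*Pou3f1*, *Sox3*, *Sox4*, *Zic2* and *Zic5* are also expressed in neural cells. At day 0 without rescue the summed TPM of 10 neural genes ran from 97.9 to 106 in si-CTL and from 125 to 129 in si-Rsl24d1 libraries. Without *Neurod1*, which ran from 3.74 to 4.67 and from 29.0 to 31.5 TPM, the sum of the other 9 ran from 94.0 to 102 and from 94.5 to 97.8, so that this gene carried the difference. At day 0 without rescue 14.3% of all genes passed in the higher and 16.1% in the lower direction, against which the counts of the following lists are set. Of the 7 neural genes that could be tested 3 passed in the higher direction, with *Neurod1* rising by 2.59, *Nes* by 0.48 and *Hes5* by 0.38, and *Pax6* passed in the lower direction (-0.78). *Neurog2* was listed at 0 in all si-CTL libraries, and *Sox1* had group means of 1.00 and 1.21. Of the 4 tested primitive streak genes *T* (-0.81) and *Mixl1* (-0.31) were lower, and the summed TPM of the 6 ran from 16.5 to 17.4 in si-CTL and from 9.44 to 13.1 in si-Rsl24d1 libraries. Of the 4 tested neural crest genes 3 were higher, *Ets1* by 0.77, *Sox10* by 0.44 and *Snai2* by 0.33, with summed TPM of 4.62 to 6.63 and 9.15 to 10.2, and *Tfap2b* had a group mean of 0 in si-CTL cells. None of the 5 tested endoderm genes passed in limma at day 0. The part of these lineages in the marker differences was not tested.

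The likeness of the markers over the 8 group means is given as a description, without a test, because the groups share cell line, culture and day. *Fgf5* and *Otx2* had a Pearson r of 0.957, and *Pou3f1* and *Sox3* of 0.978. *Zic2*, *Zic5*, *Foxd3* and *Lef1* had r of 0.854 to 0.964 with each other. *Sox4*, the marker without a fall under RA, had r of -0.43 to 0.25 with the others. *Zic5*, whose group means spanned less than 1.8-fold, was not used to look for similar genes.

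For the other 8, the closest genes over the 8 group means were sought among 5921 that spanned at least 1.8-fold. They were *D030025P21Rik*, *Aox4* and *Sh3rf3* for *Fgf5* (r = 0.995 to 0.993) and *Trp53i11*, *Wnt3* and *Rbm38* for *Otx2* (0.994 to 0.992). For *Pou3f1* they were *Adk*, *Mapkapk3* and *Ass1* (0.997 to 0.996), and for *Sox3* *Cracr2b*, *Ovol2* and *Galr2* (0.997 to 0.995). *Sox4* was followed least closely, by *Soga1*, *Cpeb2* and *Hs6st2* (0.991 to 0.980). *Cbx6*, *Vars* and *Irf2bpl* were closest to *Zic2* (0.998 to 0.995), *Il17d*, *Sgk2* and *Tubb4a* to *Foxd3* (0.997 to 0.995), and *Mirg*, *Fry* and *Pygo2*, a Wnt co-factor, to *Lef1* (0.999 to 0.998).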

How the data were processed

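Total or poly-A RNA (the study's methods and the labels differ) of 24 mouse CGR8 libraries was sequenced. Transcript estimates from Salmon were brought to gene level with tximport. The values the authors deposited are TPM on a log2 scale after adding 1. TPM sum to 1000000 in each library, which leaves the depth unknown and allows no count model. The labels name STAR 2.7.8a, Salmon 1.4.0 and the human build GRCh38, whereas the methods give GRCm38. The last 3243 rows, which include *Zic2* and *Zic5*, were written with 7 digits.

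Groups were taken from the labels, which call the libraries independent triplicates. Genes with a mean of at least 0.5 (16447) were fitted with limma 3.58.1 in R 4.3.3, with 8 group means and an intensity trend. Calls use an adjusted p under 0.01 and, where stated, a change over 1.8-fold, which is 0.848 on the log2 scale. Alternatives to these choices are described under the dependence on processing. The members, lists and tests were chosen with earlier results of these data known. Named are the 9 markers, *Rsl24d1*, of each list at most 3 genes called in each direction beside its defining markers, and the 3 genes most like each marker. *Dnmt3a*, *Fgf8*, *Nes*, *Hes5* and other list genes under 1.8-fold were named after their values were seen. Part of the RA target list is not reported here. Coordinates are those of gencode vM21, and promoters are from RefSeq.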

Additional observations from a re-analysis of the deposited data

Results flagged for a closer look

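The siRNA difference without rescue differed between day 0 and day 4, by limma's interaction test, for 5 of the 9 markers, 4 in the lower direction, where 8.83% of all genes passed, and 1 in the higher direction, where 22.1% did. The interaction, day 4 minus day 0, was -0.93 for *Fgf5* (adjusted p = 0.00018), -0.97 for *Pou3f1* (adjusted p = 3.5e-08), -0.70 for *Otx2* (adjusted p = 6.7e-07), -0.44 for *Sox3* (adjusted p = 0.0014) and 0.78 for *Foxd3* (adjusted p = 0.00024). In *Foxd3* the 3 si-Rsl24d1 libraries were all below si-CTL at day 0 and all above at day 4. *Rsl24d1* was depleted at day 0 (-1.95) and not detectably at day 4 (-0.04).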

How the results depend on the processing

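Apart from leaving out each library, the alternatives changed the amount added to the TPM (0.1 or 2), dropped the low-value filter or raised it to 1.5 (where *Fgf5* has no value), fitted the compared groups alone, used a replicate block or median of ratios scaling, left out the intensity trend or the fold threshold, or took an adjusted p under 0.05. Under these, 1012 marker values kept their direction and call, 36 were newly called, 10 were no longer called and 10 turned. A call here needs the adjusted p and the fold threshold of the setting. Leaving out the fold threshold thus calls values whose adjusted p is that of the main fit. Without the fold threshold, the markers called went from 2 to 6 for the siRNAs at day 0 (all genes 687 to 5008). They went from 0 to 5 for the same with rescue (224 to 2261) and from 0 to 4 for rescue in si-Rsl24d1 cells (46 to 2511). For RA they went from 4 to 7 in si-CTL cells (2469 to 10010) and from 5 to 8 in rescued si-Rsl24d1 cells (2452 to 9562). For the siRNAs at day 4 they went from 0 to 3 without rescue (268 to 5087) and from 0 to 2 with rescue (120 to 965). The interaction with day went from 2 to 5 (922 to 5082), so the rise was not particular to the markers. With 2 added, the markers called were 1 for the siRNAs at day 0 (all genes 504) and 1 for the interaction (628). For RA they were 2 in rescued si-CTL cells (1814) and 3 in rescued si-Rsl24d1 cells (1698). The filter at 1.5 gave 1 marker for the siRNAs at day 0 (all genes 539) and 1 for the interaction (719). With 0.1 added the markers called were 1 for the siRNAs at day 0 with rescue (all genes 460) and 2 at day 4 without rescue (601). Of all genes 1224 in place of 687 were called for the siRNAs at day 0, and 1452 in place of 922 for the interaction with day. For RA in si-CTL cells 3796 in place of 2469 were called without rescue, and 3884 in place of 2559 with rescue.

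Median of ratios scaling, which moves the median of all genes by up to 0.13, turned 10 signs, none of a value past the test. For rescue in si-Rsl24d1 cells *Sox3*, *Zic2* and *Zic5* became 0.00288, 0.0186 and 0.0297. For the siRNAs at day 4 *Fgf5*, *Otx2*, *Sox3*, *Zic2* and *Zic5* became -0.0765, -0.14, -0.0530, -0.0426 and -0.15, and the interactions of *Sox4* and *Zic5* with day became -0.0143 and -0.037. Leaving out each library gave 0 to 2 markers called for the siRNAs at day 4 without rescue, and 2 to 3 for the interaction. It turned signs of values near 0, over ranges from -0.0946 to 0.0306 (*Zic2*) and -0.00908 to 0.0747 (*Zic5*) for the siRNAs at day 0 with rescue, -0.27 to 0.0333 (*Fgf5*) for rescue in si-CTL cells, -0.0277 to 0.12 (*Sox4*) and -0.21 to 0.0899 (*Fgf5*) for RA in si-CTL cells without and with rescue, -0.0122 to 0.0442 (*Fgf5*), -0.0237 to 0.0660 (*Otx2*) and -0.16 to 0.19 (*Zic5*) for the siRNAs at day 4, -0.0558 to 0.0744 (*Zic2*) for the same with rescue, and -0.0679 to 0.28 (*Zic5*) for the interaction with day. The cause was not tested.

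The replicate number did not pair the libraries: deviations from the group means correlated with a mean r of -0.02 over 84 pairs of the same number and 0.01 over 168 of different numbers. Under the replicate block, 2 markers were again called for the siRNAs at day 0 and for the interaction, 4 and 6 for RA in si-CTL and si-Rsl24d1 cells, 4 and 5 for the same with rescue, and 0 elsewhere. Of all genes 685 in place of 687 were called for the siRNAs at day 0, and 921 in place of 922 for the interaction. Without the fold threshold the block raised the adjusted p of *Foxd3* at day 0 to 0.01 and of *Pou3f1* at day 4 with rescue to 0.013.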
